A study of Arabidopsis thaliana with 6 samples.

Results

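AT4G13493, AT4G13495, AT4G13560 (UNE15) and AT4G13575 lie within 50795 bp of each other on chromosome 4 of Arabidopsis thaliana. They were chosen, 4 of the 454 genes in the deposited table, because they lie close together and stood at a different level from Col-0 in both mutant lines. Their values against Col-0 are therefore a description, without a test. Of the members, 2 are coding (UNE15 and AT4G13575) and 2 are non-coding (AT4G13493, the precursor gene of miR850, and AT4G13495, annotated as other RNA), and the question followed here is how the coding members compare with the non-coding ones.

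RNA was sequenced from whole seedlings. The seeds of each genotype had been kept at 4 °C for 48 h. Per the labels, the seedlings then grew for 11 days at 22 °C in days of 16 h light and 8 h dark. The study's methods, written for the mutants sequenced first, give the same age. A supplementary figure legend on sap18 and sr45 gives a slightly younger one. No other treatment is named. There were 2 libraries labelled sap18, 2 from sr45 and 2 from Col-0, the wild type. The mutant lines carry T-DNA insertions, and each label stands for a single line. For the libraries labelled sap18, the descriptions name sap18 whereas the titles and the genotype field name sap18sr45. SAP18 mRNA stood at 936 and 900 cRPKM in the libraries labelled sap18, against 76.6 and 83.7 in Col-0, 11.4-fold higher in a line whose label implies a loss of it. SR45 mRNA stood at 20.9 and 23.1 cRPKM there, at 5.39 and 4.98 in sr45 and at 23.1 and 19.4 in Col-0. Every direction drawn from the libraries labelled sap18 carries this doubt about the label.

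The unit, cRPKM, is a read count corrected for the mappable positions of the gene and for the size of the library, so levels of different genes can be set side by side. The authors made the distributions of the libraries equal by quantile normalization. The table holds no read counts, and the depth behind a value is unknown. The labels do not say whether the 2 libraries of a genotype came from separate plantings, and p-values cover no more than the difference between these 2, which may be technical. As whole seedlings were used, fewer cells of a type and less RNA per cell cannot be told apart.

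SR45 is a splicing regulator with arginine- and serine-rich domains, and together with SAP18 and ACINUS it forms the ASAP complex, which binds spliced RNA next to the exon junction complex. A plant microRNA is cut by the Dicer-like enzyme DCL1 from a hairpin within a long primary transcript, and is then loaded into an Argonaute protein to pair with target mRNAs. Such primary transcripts are made by RNA polymerase II, and they can carry introns. UNE15 encodes a protein of the late embryogenesis abundant (LEA) family, a group known for its accumulation in drying seeds and under water deficit, and its name comes from an unfertilized embryo sac phenotype. AT4G13575 encodes a short protein without a known function in the annotation.

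In the RefSeq annotation of TAIR10.1, AT4G13495 runs from 7842967 to 7846774 on the plus strand, and its transcripts have 3 or 4 exons. Its last intron, of 2621 bases, holds MIR850 (AT4G13493, from 7845707 to 7845927) and MIR5026. MIR863 (AT4G13494, from 7846597 to 7846899) starts within the last exon of AT4G13495 and runs past its end. AT4G13494 is also in the deposited table but is no member. UNE15 runs from 7879558 to 7883926 on the minus strand, with a coding sequence of 330 bases, and MIR5996 lies on the same strand in its 5′ untranslated region or, in the other transcript, in its first intron. AT4G13575 runs from 7890249 to 7893761 on the minus strand, with a coding sequence of 258 bases, and 1 of its 2 transcripts extends over MIR3932b at its 3′ end. Each of the 4 members thus is a microRNA gene or overlaps another on its own strand. Among the 450 table genes found in the nuclear annotation, 6 (1.33%) do so, including the 4 members and AT4G13494, and among all 37899 annotated nuclear genes, 407 (1.07%) do so.

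**Figure D1:**
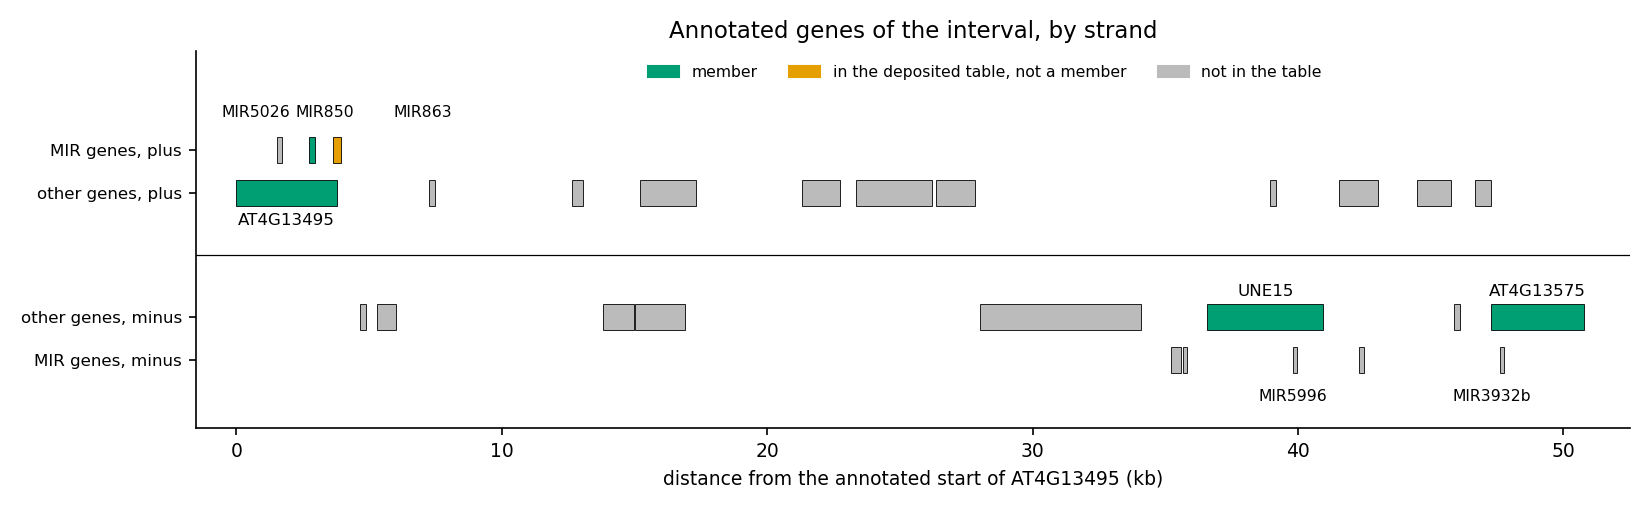
Annotated genes of the interval by distance from the start of AT4G13495 in kb, with genes of the plus strand above the line and those of the minus strand below it. The 4 members (green) stand at the ends of an interval of 27 genes, of which 5 were in the deposited table (MIR863 in orange) and 22 were not analysed here (grey).

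The interval holds 10 protein-coding genes, 8 microRNA genes and 9 other non-coding genes. The 22 genes outside the table include the ammonium transporter gene AMT1;1 and the histone gene HTA4, and no statement on them can be made, since the table lists genes that the authors had selected for change. The mature microRNAs annotated at the members are printed because they show that the loci encode different microRNAs. They come from the RefSeq genome TAIR10.1, with bases 2 to 8 in capitals, and none of the 7 shares these bases with another.
miR850 (AT4G13493, within the intron of AT4G13495): tAAGATCCggactacaacaaag
miR5026 (same intron): aCTCATAAgatcgtgacacgt
miR863-5p (AT4G13494, last exon of AT4G13495): tTATGTCTtgttgatctcaat
miR863-3p (AT4G13494, past the end of AT4G13495): tTGAGAGCaacaagacataat
miR5996 (within UNE15): tGACATCCagatagaagctttg
miR3932b-5p (within AT4G13575): tTTGACGTgctcgatctgctc
miR3932b-3p (within AT4G13575): aACTTTGTgatgacaacgaag

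The row of AT4G13493 covers the precursor gene and not the mature microRNA. The library kit that the series description names, a stranded mRNA kit, selects polyadenylated RNA, so the values of the microRNA genes are levels of longer transcripts. The precursor gene of 221 bases at chr4:7845707-7845927 on the plus strand is shown with the mature miR850 in capitals.
MIR850: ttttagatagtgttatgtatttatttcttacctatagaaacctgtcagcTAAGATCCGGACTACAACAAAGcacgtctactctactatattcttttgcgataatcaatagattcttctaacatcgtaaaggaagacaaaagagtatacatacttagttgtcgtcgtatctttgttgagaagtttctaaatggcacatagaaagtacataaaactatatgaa

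The ends of the introns that hold MIR850 and MIR5996 are shown because the products of SR45 and SAP18 act on splicing, with 10 exon bases, 20 intron bases and the outermost intron bases in capitals. The intron of AT4G13495 (chr4:7843619-7846239, plus strand) begins with GT and ends with AG. The first intron of the shorter UNE15 transcript (chr4:7882134-7883480, minus strand) is annotated from AT to AC, and an identical stretch of 62 bases spans both of its ends. The deposited table gives 1 value per gene, so spliced and unspliced transcripts were not told apart here.
AT4G13495, start of the intron: tgtgtcaacgGTacgtcttcttttgtcttg
AT4G13495, end of the intron: cgaagtatcttcctcaccAGatgatggggt
UNE15, start of the intron: cattattcacATtaacaattaatatgcttt
UNE15, end of the intron: gtagcatacacattattcACattaacaatt

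The non-coding member AT4G13495 had the highest mean level in Col-0 of the 454 genes. Its levels were 487 and 501 cRPKM in the libraries labelled sap18, 277 and 359 in the sr45 libraries, and 1448 and 1729 in Col-0. The groups did not overlap, and how many other genes of the table keep their groups apart was not counted. The mean level of AT4G13495 with the sap18 label was 31.1% of that in Col-0, a log2 change of -1.68 (standard error 0.18, limma on log2(cRPKM + 1)). In sr45 the log2 change was -2.32 (standard error 0.18), and the smallest ratio of a Col-0 to an sr45 library was 4.04.

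AT4G13493, the miR850 precursor gene within the intron of AT4G13495, lay at a lower level and in the same order. It had 54.8 and 56.6 cRPKM in the libraries labelled sap18, 26.8 and 44.2 in the sr45 libraries, and 126 and 128 in Col-0. The sr45 libraries differed most from each other, and the groups again did not overlap. Its mean was 2.28-fold lower than Col-0 with the sap18 label and 3.57-fold lower in sr45, with log2 changes of -1.17 and -1.85 (standard error 0.23 for each).

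Set against AT4G13495, the level of AT4G13493 was 11.3% and 11.3% in the libraries labelled sap18, 9.70% and 12.3% in the sr45 libraries, and 8.68% and 7.41% in Col-0. The share was thus somewhat higher in every mutant library than in either Col-0 library, and the mutants overlapped. How reads from the intron and from the precursor gene were divided between the 2 loci is not given in the sources used here, so their levels may not be separate measurements.

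UNE15 was the least abundant member. It had 2.11 and 2.00 cRPKM in the libraries labelled sap18, 0.544 and 0.611 in the sr45 libraries, and 11.9 and 11.8 in Col-0. Its libraries of 1 genotype were close to each other, and the groups did not overlap. Its mean was 17.3% of the Col-0 mean with the sap18 label and 4.87% of it in sr45, that is 5.78-fold and 20.5-fold lower. Its log2 changes were -2.08 and -3.03 (standard error 0.14 for each), which the pseudocount of 1 understates at levels this low. UNE15 passed the minimum of 5 cRPKM through Col-0 alone, so a gene of its kind had to be lower in a mutant to be listed.

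AT4G13575, the other coding member, had 47.2 and 42.6 cRPKM in the libraries labelled sap18, 7.14 and 7.61 in the sr45 libraries, and 126 and 143 in Col-0. The groups did not overlap, and the sr45 libraries lay far below the other 4. Its mean was 33.4% of the Col-0 mean with the sap18 label and 5.50% of it in sr45, with log2 changes of -1.56 and -4.01 (standard error 0.15 for each). In sr45 its mean was 18.2-fold lower than in Col-0, close to the 20.5-fold of UNE15, whereas AT4G13493 was 3.57-fold lower.

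**Figure D2:**
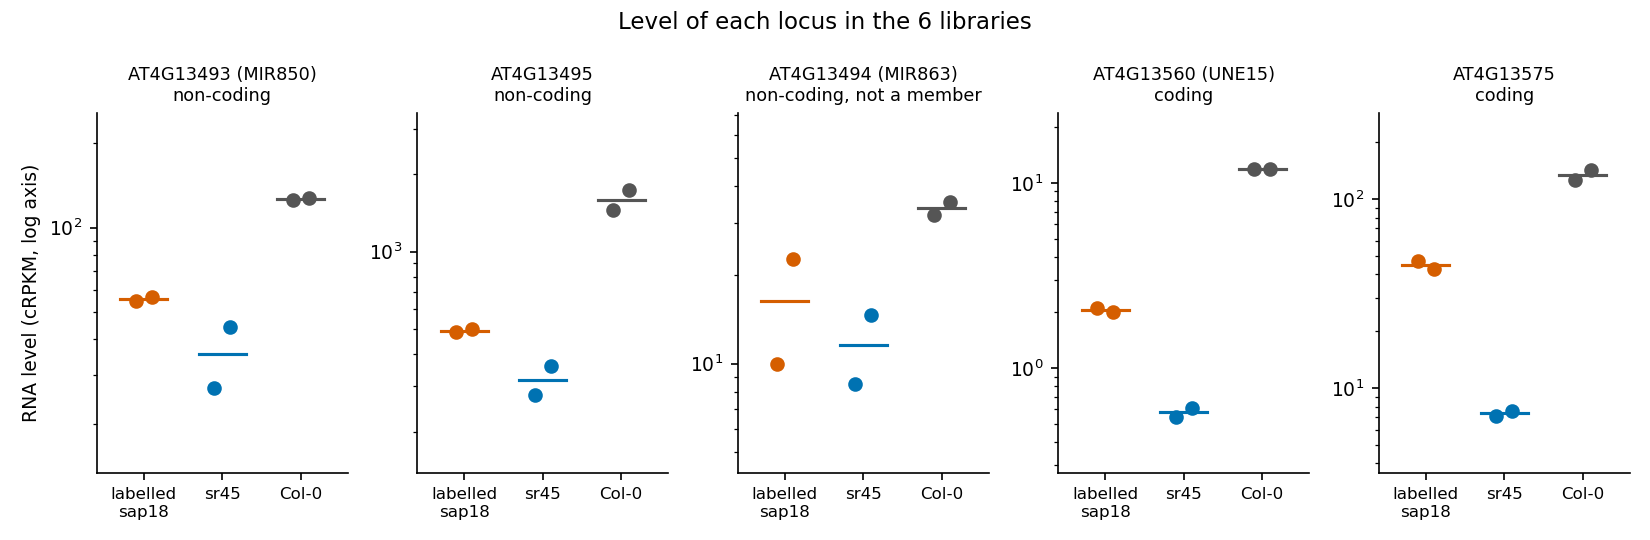
Level of each member and of AT4G13494 in the 6 libraries, in cRPKM on a log axis with a scale of its own in each panel, with points for libraries and lines for the mean of 2. In each member the libraries labelled sap18 lie between sr45 and Col-0 without overlap, and in AT4G13494 the libraries labelled sap18 (10.01 and 22.6) overlap those of sr45 (8.52 and 14.6). The members were chosen on change against Col-0, and how many other table genes have this order was not counted.

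By the fold criterion of the study's methods (each of the 4 possible ratios of a mutant and a Col-0 library at least 2 in 1 direction, and more than 5 cRPKM in both libraries of a group), the 4 members were lower with the sap18 label and in sr45 alike. The minimum read count that the methods also name could not be applied, since the table holds no counts. Over the table, 48 of 454 genes (10.6%) met it downward and 42 (9.25%) upward in the libraries labelled sap18, and 137 (30.2%) downward and 52 (11.5%) upward in sr45. The members were chosen on these contrasts, and nothing is read from their counts. The contrasts share the Col-0 libraries. By the ratio of group means, a fold of at least 2 was reached by 186 genes with the sap18 label and by 357 in sr45. The paper's numbers of changed genes in its sap18 and sr45 mutants lie nearer to these than to those of the criterion applied per library. The shares above may therefore not be those of the authors' own calling. The member nearest to the threshold was AT4G13493 in the libraries labelled sap18, where the smallest ratio was 2.22. AT4G13494, just outside, met the criterion in sr45 and had a smallest ratio of 1.41 in the libraries labelled sap18.

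The rule did not use the difference between the mutant lines, which was tested with limma on the whole table in 1 fit of 3 genotypes. The same libraries served to choose the members, and each of the 4 stood higher with the sap18 label than in sr45. Over the table, 201 of 454 genes (44.3%) were higher there and 64 (14.1%) lower, so a call in this direction was common. As the table lists genes selected for change, these shares and the adjusted p-values hold within it alone. The median difference of all genes was 0.40 on the log2 scale.

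AT4G13575 differed most, with a log2 difference (label sap18 minus sr45) of 2.45 (standard error 0.15, limma adjusted p = 5.5e-05), which ranked 4th of the 454 genes from the highest signed difference. UNE15 differed by 0.95 (standard error 0.14, adjusted p = 0.0013), AT4G13493 by 0.68 (standard error 0.23, adjusted p = 0.034) and AT4G13495 by 0.65 (standard error 0.18, adjusted p = 0.018). For UNE15 both compared groups lay below the minimum level of the fold criterion (2.11 and 2.00 against 0.544 and 0.611 cRPKM), at an unknown read depth. The size of its difference depended on the pseudocount, and was 1.67 with a pseudocount of 0.1. The adjusted p of UNE15 carries this limit. In AT4G13494 the difference of 0.40 did not pass (95% interval -0.44 to 1.25, adjusted p = 0.35). As a ratio of means, the level in the libraries labelled sap18 was 6.09 times that in sr45 for AT4G13575 and 3.56 times for UNE15, against 1.55 times for AT4G13495 and 1.57 times for AT4G13493.

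Of these calls, that of AT4G13575 alone held in each alternative. With each mutant shifted so that its median change against Col-0 over the table was 0, which moved the sap18 label by 0.38 and sr45 by 0.96 in log2 units, AT4G13575 still passed (adjusted p = 8e-05) and the other 3 did not (adjusted p = 0.069 for UNE15, 0.80 for AT4G13493 and 0.85 for AT4G13495). The table lists genes selected for change, more of them lower (137) than higher (52) in sr45, so its median is no neutral reference. With the shift to the median, 52 genes of the table were higher and 144 lower in the libraries labelled sap18. Centred on the genes called in the other mutant alone, 297 were higher and 43 lower, and the 4 members passed. The calls of the non-coding members were also lost without either library labelled sap18 or without sr45 replicate 1 (adjusted p = 0.074 to 0.14), and that of AT4G13493 without either Col-0 library (adjusted p = 0.056). The log2 difference of AT4G13493 was 0.33 without sr45 replicate 1 and 1.03 without sr45 replicate 2, and that of AT4G13495 was 0.46 and 0.83. Without a library labelled sap18 the differences stayed near their full values (0.70 and 0.65 for AT4G13493, 0.67 and 0.63 for AT4G13495), while their standard errors were larger. Over 13 alternatives in limma, the adjusted p ranged between 6.8e-06 and 0.0019 for AT4G13575, between 0.00025 and 0.069 for UNE15, between 0.0034 and 0.80 for AT4G13493 and between 0.0023 and 0.85 for AT4G13495.

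**Figure D3:**
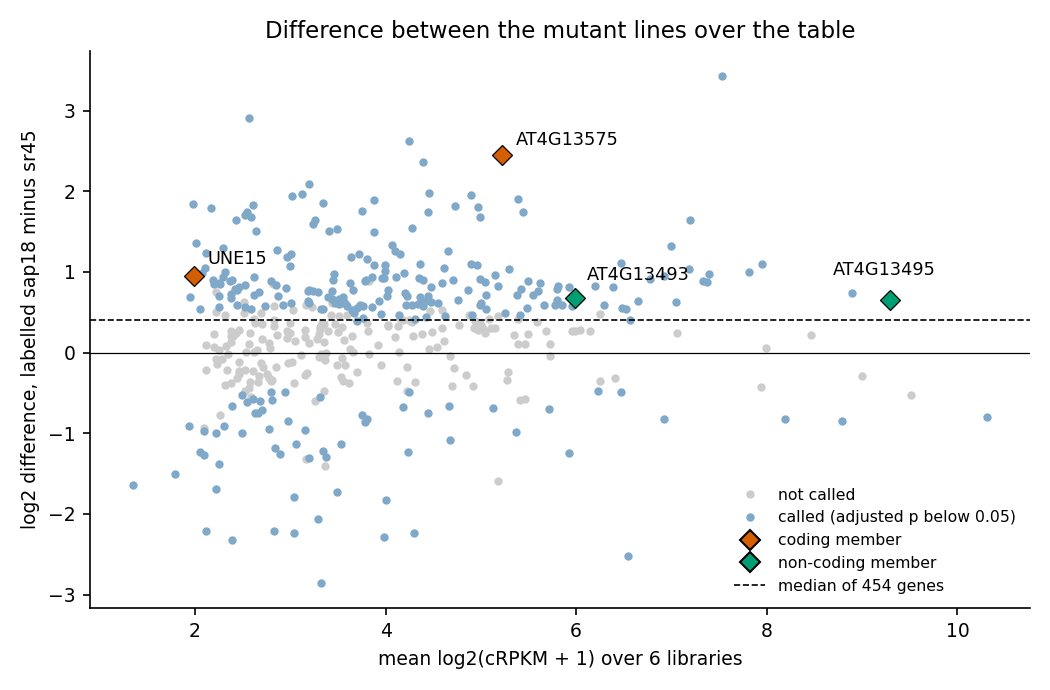
Log2 difference between the libraries labelled sap18 and sr45 against the mean log2(cRPKM + 1) over 6 libraries, for the 454 genes of the table. AT4G13575 (2.45) stands far above the dashed median of 0.40, UNE15 (0.95) above it, and the non-coding members (0.68 and 0.65) lie close to it. UNE15 was below the minimum level of the fold criterion in both mutant lines, and its position depends on the pseudocount.

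The coding and non-coding members were compared directly as the mean log2 level of UNE15 and AT4G13575 minus that of AT4G13493 and AT4G13495 in each library, without a pseudocount. This value was -4.03 and -4.19 in the libraries labelled sap18, -5.45 and -5.87 in the sr45 libraries, and -3.46 and -3.52 in Col-0. The groups did not overlap. The position of Col-0 is not independent of how the members were chosen, and UNE15, which makes up 1 of the 2 coding values, was in the table through Col-0 alone. The difference between the libraries labelled sap18 (-4.11 ± 0.11) and sr45 (-5.66 ± 0.29; SD, n = 2 libraries each) was 1.55, with p = 0.333 in a two-sided exact permutation test, the smallest p that 2 against 2 libraries can give. The difference from Col-0, given as a description, was -0.62 with the sap18 label and -2.17 in sr45. With the sap18 label this became -0.39 with a pseudocount of 1 and -0.37 with AT4G13495 as the single non-coding member. The direction was the same in each alternative, but none of them left out UNE15. AT4G13495 had 10.3 and 11.8 times the level of AT4G13575 with the sap18 label, overlapping the 11.5 and 12.1 times in Col-0.

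**Figure D4:**
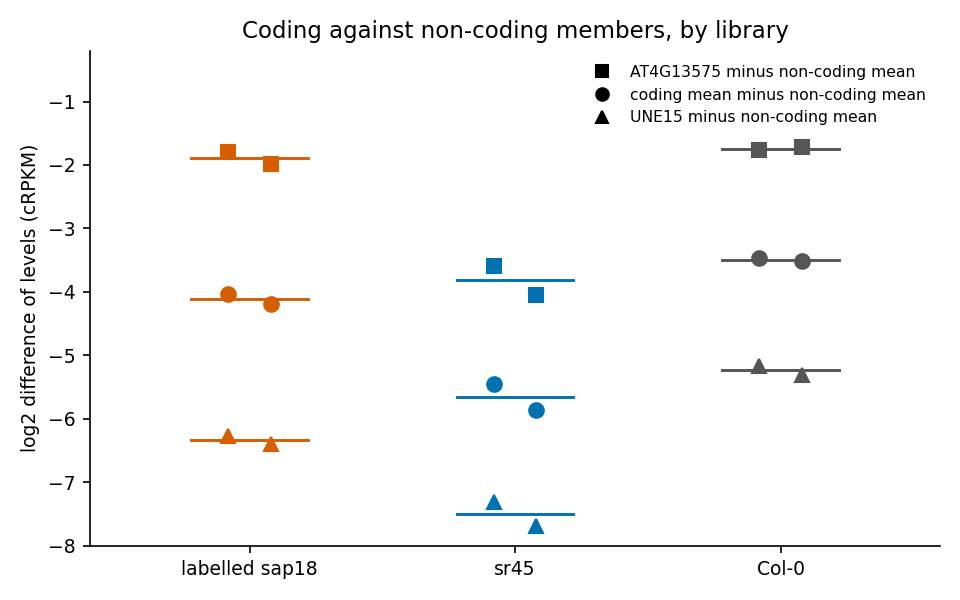
Log2 level of the coding members minus the mean log2 level of the non-coding members AT4G13493 and AT4G13495, for each library (points) and genotype (lines, mean of 2 libraries). AT4G13575 lies near its Col-0 position with the sap18 label (-1.79 and -1.98, against -1.76 and -1.72) and lower in sr45, and the values of UNE15 lie lower than Col-0 in both lines.

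The same value was taken for each coding member. AT4G13575 minus the non-coding mean was -1.79 and -1.98 in the libraries labelled sap18, -3.59 and -4.05 in the sr45 libraries, and -1.76 and -1.72 in Col-0. UNE15 minus the non-coding mean was -6.28 and -6.39 in the libraries labelled sap18, -7.31 and -7.69 in the sr45 libraries, and -5.16 and -5.32 in Col-0. For AT4G13575, the libraries labelled sap18 lay close below Col-0 and sr45 far below, and for UNE15 the 3 groups were spaced more evenly. Whether the coding members differ from each other in this respect was not tested.

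AT4G13495 and AT4G13575 share sequence, and their ratio was taken after this had been seen. The level of AT4G13495 was 10.3 and 11.8 times that of AT4G13575 in the libraries labelled sap18, 38.7 and 47.1 times in the sr45 libraries, and 11.5 and 12.1 times in Col-0. The libraries labelled sap18 overlapped Col-0 in this ratio, and sr45 stood apart from both. UNE15 had 4.46% and 4.71% of the level of AT4G13575 in the libraries labelled sap18, 7.62% and 8.03% in the sr45 libraries, and 9.50% and 8.27% in Col-0.

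The best local alignment of AT4G13575 and AT4G13495, each with 1000 bases before its start, held 598 identical, 102 mismatched and 114 gapped columns (73.5% identical). It covered positions -464 to 288 around the start of AT4G13575 and -509 to 253 around that of AT4G13495, and so included the promoter and first exon of AT4G13575 and the promoter and first 253 bases of AT4G13495. Of the 258 coding bases of AT4G13575, 52 lay inside it. The longest identical run was 45 bases, shorter than the reads of 150 bases, and whether reads of 1 locus were counted at the other was not tested. Between UNE15 and AT4G13495 the best alignment was short (150 identical of 207 columns) and lay at positions -881 to -682 relative to the start of UNE15 and within the last intron of AT4G13495. Between AT4G13575 and UNE15 it held 207 identical of 305 columns within the genes.

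**Figure D5:**
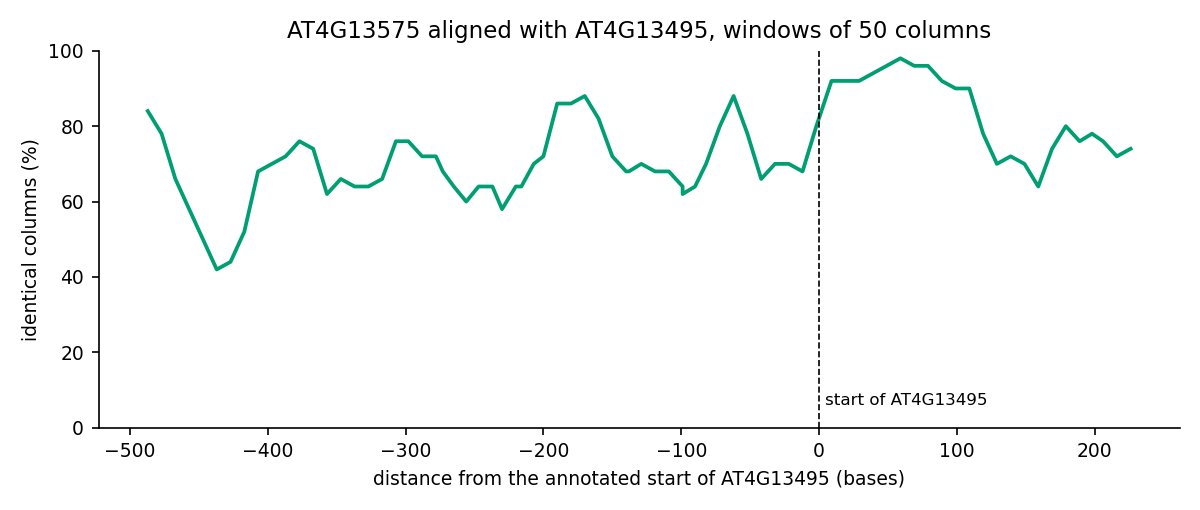
Share of identical columns, in percent, in windows of 50 columns along the alignment of AT4G13575 with AT4G13495, by distance from the start of AT4G13495 in bases. The windows centred 9 to 109 bases after the start are 90 to 98% identical, and the least similar window, at position -437, is 42% identical.

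The 250 bases before each start are shown with the bases that are identical in the alignment of these 2 promoters in capitals (152 of 204 columns, 74.5%). They were read from TAIR10.1 at chr4:7893762-7894011 on the minus strand and at chr4:7842717-7842966 on the plus strand.
AT4G13575 (coding): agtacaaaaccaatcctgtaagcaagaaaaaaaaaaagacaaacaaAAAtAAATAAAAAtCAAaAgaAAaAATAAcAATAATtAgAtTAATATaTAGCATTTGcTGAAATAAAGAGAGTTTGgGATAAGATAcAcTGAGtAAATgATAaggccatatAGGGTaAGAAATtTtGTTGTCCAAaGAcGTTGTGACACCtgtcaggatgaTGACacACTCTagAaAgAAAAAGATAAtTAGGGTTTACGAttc
AT4G13495 (non-coding): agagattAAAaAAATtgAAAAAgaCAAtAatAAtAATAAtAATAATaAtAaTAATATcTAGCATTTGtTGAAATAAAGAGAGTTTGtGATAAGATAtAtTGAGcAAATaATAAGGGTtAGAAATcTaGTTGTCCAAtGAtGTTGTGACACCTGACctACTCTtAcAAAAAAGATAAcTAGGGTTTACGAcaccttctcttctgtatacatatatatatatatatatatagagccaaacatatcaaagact

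Among the 37896 other promoters of the annotation, each of these 2 ranked the other 2nd by alignment score, at 155, against medians of 21 and 20. The promoter of AT4G13577, a coding gene 1957 bp beyond AT4G13575 that was not analysed here, scored higher with both (271 with AT4G13575 and 220 with AT4G13495). The UNE15 promoter scored 18 and 24, near the medians. Of 6 motifs searched on both strands in the members' promoters, the G-box CACGTG (5.39% of all promoters), the ACGT core ACGTG (20.8%, which every G-box also holds), the DRE core CCGAC (12%), the TATA box TATAAA (44.6%) and the repeat GAGAGA (21%) had no match. The W-box core TTGAC (43.9%) had 1 match, in UNE15. The 250 bases before AT4G13493 lie within the intron of AT4G13495.

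The genes of the table most like each member were taken by the Euclidean distance of their log2 changes in the 4 mutant libraries against the Col-0 mean. Nearest to AT4G13575 was UNE15 (1.57), followed by COX19-2 (1.99) and AT1G65370 (2.11). Nearest to UNE15 were COX19-2 (0.56), AT1G65370 (0.79) and AT4G13495 (1.17). COX19-2 encodes a protein named for cytochrome c oxidase assembly, and AT1G65370 one of the TRAF-like family. AT1G65370 was also nearest to AT4G13495 (0.49), before the beta-glucosidase gene BGLU8 (0.68) and HRD1B (0.73), which encodes a RING/U-box protein. Nearest to AT4G13493 were the GDSL-like lipase gene AT1G28610 (0.33), AT2G39340 (0.36) and the MAP kinase gene MPK17 (0.44), and AT4G13495 ranked 55th for it (1.01). Apart from UNE15 and AT4G13495, these genes lie on chromosomes 1, 2 and 3.

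Without the members, 21 table genes are annotated by RefSeq as other than protein coding. They include 3 pseudogenes and 4 transcribed pseudogenes, so they are not all genes of non-coding RNA. By the fold criterion 5 were lower and 0 higher in the libraries labelled sap18, against the table's 10.6% lower and 9.25% higher, and 6 were lower and 4 higher in sr45, against 30.2% lower and 11.5% higher. Of these 21 genes, 2 were called higher and 7 lower by limma with the sap18 label than in sr45, with a median of -0.21 on the log2 scale. The 425 coding genes without the members had 194 higher and 57 lower, with a median of 0.43. The microRNA genes in the table were AT4G13493 and AT4G13494. Of 52 LEA genes listed, 3 were in the table, in which 450 of the 37899 annotated nuclear genes were found. COR15A, a cold-induced chloroplast LEA gene, had 37.3 and 34.9 cRPKM in the libraries labelled sap18, 15.6 and 22.3 in the sr45 libraries, and 39.2 and 47.7 in Col-0. AT1G02820, a LEA3 family gene, had 19.6 and 21.4 cRPKM in the libraries labelled sap18, 23.0 and 27.1 in the sr45 libraries, and 39.8 and 44.2 in Col-0. UNE15 was the single LEA gene that met the fold criterion in either line. None of 11 genes of microRNA production and its regulators, DCL1 and SERRATE among them, was in the table. Given the small share of annotated genes that the table holds, nothing is read from their absence.

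Beyond AT4G13494, 2 genes of the table lie within 200 kb of a member. LRX3, which encodes a leucine-rich repeat extensin of the cell wall, lies 81.6 kb away and had 54.9 and 68.5 cRPKM in the libraries labelled sap18, 23.4 and 14.5 in the sr45 libraries, and 23.9 and 27.3 in Col-0. AT4G13800, 108 kb away, had 5.41 and 2.88 cRPKM in the libraries labelled sap18, 2.83 and 3.38 in the sr45 libraries, and 6.98 and 7.40 in Col-0. Neither had the order of levels of the members without overlap, and how many other genes of the table had it was not counted.

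The seedling label could not be checked, since 13 of 14 markers of leaf, seed and root were outside the table. The marker that was present, the root iron transporter gene IRT1, had 7.11 and 15.7 cRPKM in the libraries labelled sap18, 1.94 and 3.70 in the sr45 libraries, and 1.60 and 4.05 in Col-0, and its part in the members' levels was not tested. The members' levels were counted on gene models of Ensembl Plants, which may differ from those of RefSeq used for the map. A lncRNA gene, AT4G06105, overlaps UNE15 on the other strand, and whether the counting used strand is not given in the sources used here.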

How the data were processed

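RNA of whole seedlings was compared in 6 libraries, 2 each labelled sap18, sr45 and Col-0. Per the study's methods, which describe the mutants sequenced first, the authors quantified reads with vast-tools on an extended Ensembl Plants annotation and deposited RPKM values corrected for mappability (cRPKM), after quantile normalization. The labels name the build TAIR 10. The stated depth is 30M reads of 150 bases per sample. The number of value columns without a sample was 0.

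Values were taken as log2(cRPKM + 1). limma 3.58.1 in R 4.3.3 was fitted to 454 genes and 3 genotypes, with Benjamini-Hochberg adjustment at 0.05. It was run on simulated data, with the same spread for every gene and changes in the libraries labelled sap18 alone. The real data differ in both respects. The exact permutation test ran over libraries. Sequences and gene models were read from RefSeq TAIR10.1, in which 450 genes were found, and aligned with Biopython 1.88 (match 2, mismatch -3, gap opening -5, gap extension -2). Python 3.11.15, numpy 2.4.6, pandas 2.3.3 and matplotlib 3.10.9 did the rest.

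The members and the lists were chosen with earlier results of these data known. Named genes were the members, table loci within 200 kb, the 3 nearest profiles per member, SR45, SAP18 and up to 4 genes of each list. Alternatives covered pseudocount, filter, fold, centring, variance model, replicate block and each library left out.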

Additional observations from a re-analysis of the deposited data

How the results depend on the processing

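No member's log2 change reversed in any of the 3 contrasts, in 52 alternative values each. Many of these values could not differ from the main one. The filter, limma-trend, replicate block, fit of 2 genotypes and loss of a library outside the contrast leave the log2 change unchanged. The members were also chosen for their change against Col-0. Of 454 table genes, 261 were called between the mutants with the replicate block, 257 with a pseudocount of 0.1 and 274 with limma-trend. The filter and the fit of 2 genotypes gave 265, centring on the median 196, and centring on the other mutant's genes 340. A call was thus common. The members called between the mutants were 4 with the replicate block, with a pseudocount of 0.1 and with limma-trend. They were also 4 with the filter on low values, which removed no gene, and with centring on the genes called in the other mutant alone. They were 3 in the fit of the 2 genotypes compared, 1 (AT4G13575) with centring on the median of all genes, and 2 to 4 when a library was left out. The table's 265 calls became 155 and 146 without the first and the second library labelled sap18. A fold of at least 3 left 1 member (UNE15) with the sap18 label and 3 in sr45, and the other alternatives of the fold criterion left 4.

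Over the table, the fold criterion gave 90 genes in the libraries labelled sap18, against 251 with a fold of 1.5, 23 with a fold of 3, 186 with group means and 149 without Col-0 replicate 1. In sr45 it gave 189, against 364, 51 and 357 for the same folds and group means. The coding minus non-coding value between the mutants was 1.04 with a pseudocount of 1, and 1.34 to 1.76 with a library left out. Against Col-0 it was -0.39 with that pseudocount and -0.37 with AT4G13495 as the single non-coding member for the sap18 label, and -1.43 and -1.94 for sr45, with ranges of -0.70 to -0.54 and -2.38 to -1.96 when a library was left out. No alternative of the coding minus non-coding value left out UNE15. The cause was not tested.

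Libraries of the same number did not deviate together (r = 0.08, -0.03 and -0.11 across genes), so the numbers were not taken as pairs. With the block, 261 genes of the table were called between the mutants. An alternative chosen after seeing the data, a block with the numbers of sr45 and Col-0 crossed, called 403 genes between these 2 genotypes, against 396 without a block. With 2 libraries a genotype and no read counts, the precision of a level is known only from a single difference.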
